A study of Saccharomyces cerevisiae with 12 samples.

Results

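Mitochondrial ribosomal protein genes were examined in budding yeast (Saccharomyces cerevisiae) lacking HSP31, HSP32 or HSP33, at the diauxic shift. The set was chosen by name alone: every gene on the array whose name is MRPL, MRPS, MRP or RSM followed by a number. It holds 57 of the 6252 genes on the array, read by 114 of its 12504 gene spots, with 2 spots per gene. Of these, 30 carry MRPL names, 4 MRPS names, 12 MRP names and 11 RSM names. By their known place in the ribosome, 33 belong to the large subunit and 23 to the small subunit. MRP8 was left without a subunit, because it was named as a mitochondrial ribosomal protein gene but its function is not known. The array names 10 further genes by locus only, and the name rule passed over these although the reference table gives them member symbols. They are described separately near the end.

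The mitochondrial ribosome (mitoribosome) sits at the inner mitochondrial membrane and translates the few mRNAs of mitochondrial DNA, which in yeast encode chiefly core subunits of the respiratory chain and of the ATP synthase. Its ribosomal RNAs and the protein Var1 come from mitochondrial DNA, and its other proteins are encoded in the nucleus, made in the cytosol and imported. Many are counterparts of bacterial ribosomal proteins, and others are found only in mitochondrial ribosomes. The diauxic shift is the point where glucose is used up and yeast changes over to respiratory growth, for which the mitoribosome is needed.

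Total RNA from 12 samples was hybridized to 1 array each, labelled with the dye Cy3. The groups were hsp31∆ (hsp31 deleted), hsp32∆ (hsp32 deleted), hsp33∆ (hsp33 deleted) and wild type, with 3 arrays each, all grown in synthetic complete medium to the diauxic shift. HSP31, HSP32 and HSP33 encode members of the DJ-1 superfamily. The labels give a single deletion per strain, do not name the strain background or the marker that replaced the gene, and give no word on whether the 3 arrays of a strain come from 3 cultures. If they do not, the p-values reflect technical spread only. The comparisons ask how each deletion differs from wild type, and how the deletions differ from each other.

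HSP31 itself was not well above background on any of the 3 hsp31∆ arrays, at least 43.9-fold lower than in wild type. HSP32 and HSP33 are near-identical to each other and their probes stayed above background in their own deletions, so they check no label. URA3 was at least 219-fold higher in hsp32∆ than in wild type. Its mean log2 intensity was 15.14 in hsp32∆, against 7 in hsp31∆, 6.95 in hsp33∆ and 6.91 in wild type. In every comparison that involves hsp32∆, the deletion and the URA3 level thus differ together, and their effects cannot be told apart. The median spot had a foreground between 607 and 1153, with local background between 66 and 93. The array of hsp32∆ replicate 2 stood apart: the signal needed to pass its negative controls was 284, against 35.4 to 53.6 on the other 11 arrays, and 80.3% of probes passed, against 91.4% to 97.1%. Of the 57 members, 54 were above background on all 12 arrays, and MRPL6, MRPL17 and MRPL25 on 11. All 57 were among the 5863 genes tested.

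Most mitoribosomal mRNAs moved little. In hsp31∆, 3 members were higher and 13 lower than in wild type at an adjusted p under 0.05 in limma, which is 28.1% of the 57, while 56.1% of all genes tested passed (25.7% higher, 30.3% lower). In hsp32∆, 7 were higher and 21 lower, 49.1% against 70% of all genes (33.3% higher, 36.7% lower). In hsp33∆, 7 were higher and 16 lower, 40.4% against 61.4% of all genes (29% higher, 32.4% lower). The 3 comparisons share the wild-type arrays and are not separate evidence. Changes past 1.5-fold were found for 2 members in hsp31∆, 6 in hsp32∆ and 4 in hsp33∆, or 3.51%, 10.5% and 7.02% of members, where 24.3%, 41.3% and 30.1% of all genes tested changed that much. The median size of a member's log2 difference was 0.18, 0.24 and 0.23 in hsp31∆, hsp32∆ and hsp33∆, and 0.32, 0.47 and 0.37 over all genes. The standard errors were alike, with a median of 0.10 for the members and 0.11 for all genes in hsp31∆. These shares were also taken in 11 settings that used all 12 arrays, with the main run and other member sets among them. In each, the share of members called stayed below the share of all genes called in all 3 comparisons with wild type. Runs with an array left out, with the 2 compared groups alone or within 1 slide were not part of this count. No test was made of these differences in share.

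Whether the many small differences count as falls depends on the scaling of the arrays. The members' median log2 difference was -0.10 in hsp31∆, -0.13 in hsp32∆ and -0.05 in hsp33∆, against -0.03, -0.04 and -0.03 over all genes. Arrays scaled to their 75th percentile instead of by quantiles put the median of all genes 0.15, 0.21 and 0.19 higher. Under that scaling 13 members were higher and 5 lower in hsp31∆, 21 higher and 6 lower in hsp32∆, and 21 higher and 5 lower in hsp33∆. Relative to the median of all genes, the members' median then lay at 0.00, -0.02 and -0.03, against -0.07, -0.10 and -0.02 with quantiles. Scaling to the median kept the direction, with 3 members higher and 12 lower in hsp31∆, 6 and 22 in hsp32∆, and 6 and 15 in hsp33∆; the members' medians of -0.08, -0.13 and -0.10 then lay 0.00, -0.02 and -0.03 from those of all genes. The majority direction thus turned with 1 of the 2 other scalings, and the set is not described as lower or higher as a whole. In hsp33∆ the number of members called higher also moved with single arrays: it was 13 without hsp33∆ replicate 3, and 4 without hsp33∆ replicate 1 or 2 or without wild-type replicate 1 or 2. Without the array of hsp32∆ replicate 2, the hsp32∆ counts were 7 higher and 18 lower.

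**Figure D1:**
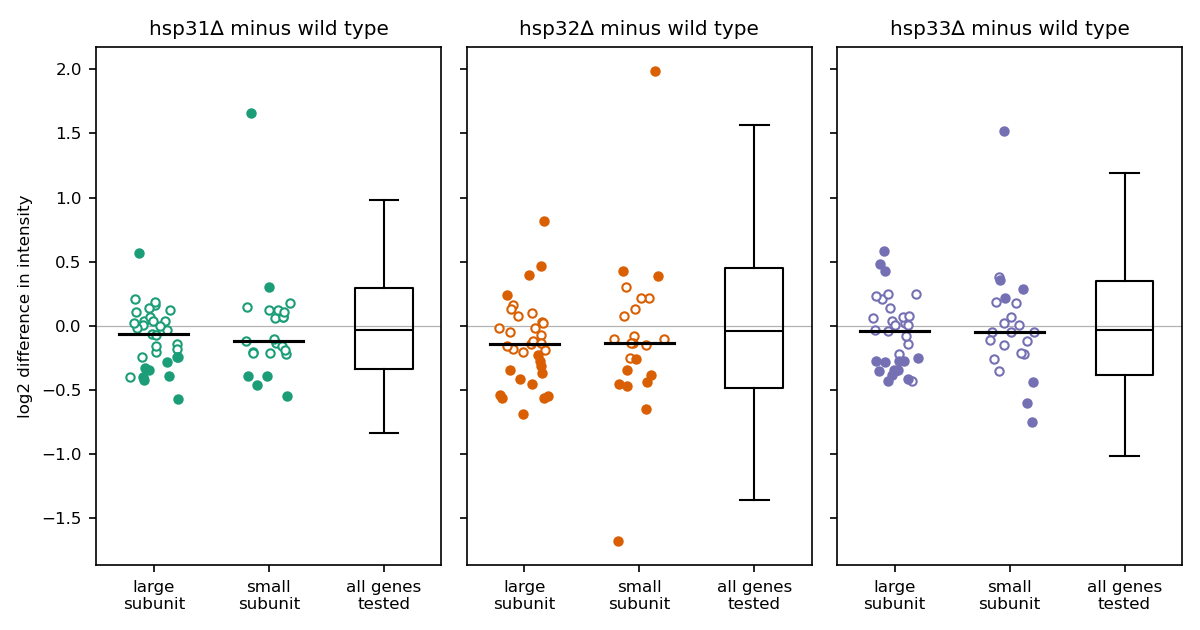
Log2 difference in intensity of each deletion from wild type, 1 point per large-subunit (n = 33) or small-subunit (n = 23) gene, filled where limma's adjusted p was under 0.05, with a bar at the median. The box in each panel gives the median and quartiles of all 5863 genes tested, with whiskers at the 5th and 95th percentiles. Most members lie within the box; RSM22 is the single point near the top of each panel, and RSM7 is the lowest point in hsp32∆.

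Of the members, 12 were called in the same direction in every deletion. RSM22 and MRPL32 were called higher in all 3 comparisons with wild type, 3.51% of members against 22.5% of all genes tested. MRPL6, MRPL24, MRPL25, MRPL31, MRPL38, MRPL44, MRPS18, MRP8, MRP21 and RSM7 were called lower in all 3, 17.5% of members against 25.4% of all genes. No member was called in opposite directions. Both members called higher, and MRP8, MRPL38, MRPS18 and RSM7 among those called lower, kept all 3 calls with 75th-percentile scaling and with median scaling. The other 6 lost calls under 1 or both. Of the 12, RSM22, MRPL32, MRP8, MRPL38 and MRPS18 kept their calls in every alternative run. Without hsp32∆ replicate 2, the hsp32∆ differences were 2.02 for RSM22, -1.62 for RSM7, -1.18 for MRP8, 0.76 for MRPL3, -0.63 for MRPS18 and -0.54 for MRPL38, all still called.

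**Figure D2:**
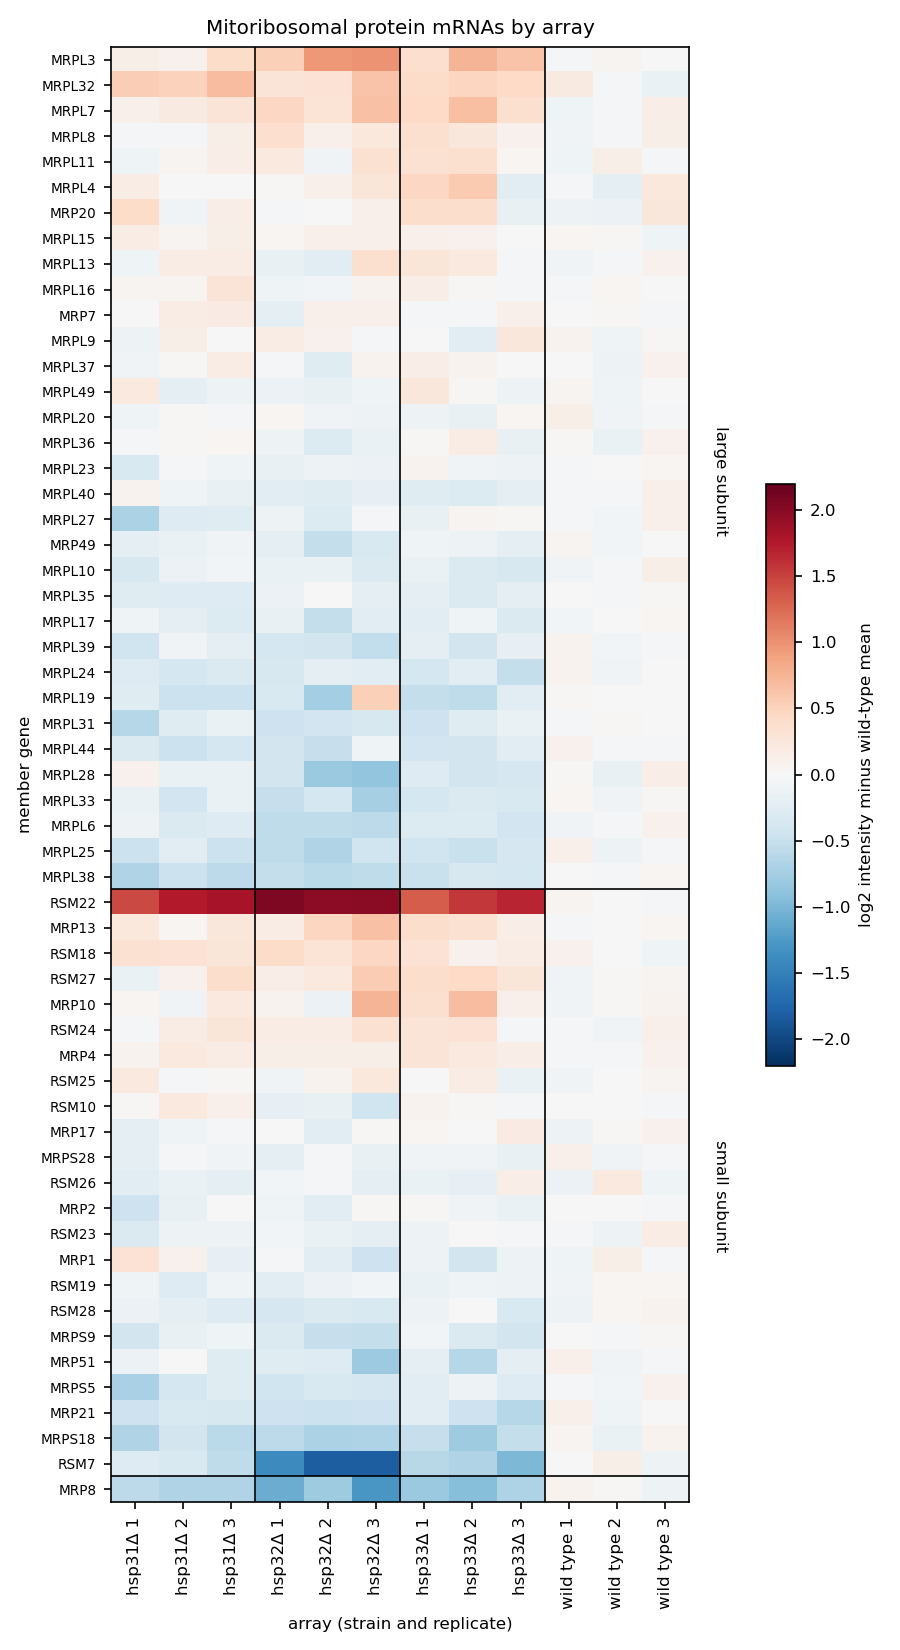
Log2 intensity of each member on each array minus its wild-type mean, on a colour scale that reaches 2.2 in either direction. Rows are the 33 large-subunit genes, the 23 small-subunit genes and MRP8, ordered within a block by their mean difference; columns are the 12 arrays, hsp31∆, hsp32∆, hsp33∆ and then wild type. RSM22 is dark red on the arrays of all 3 deletions, RSM7 is darkest blue in hsp32∆, and most other rows are pale.

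In the small subunit, RSM22 showed the largest measured difference among members whose probes were not saturated. Its product is related to methyltransferases that use S-adenosylmethionine. Its log2 intensity was 10.74, 11.03 and 11.10 in hsp31∆, 11.34, 11.25 and 11.27 in hsp32∆, and 10.63, 10.84 and 10.97 in hsp33∆, against 9.35, 9.29 and 9.24 in wild type. Every deletion array lay far above every wild-type array. The rise was 3.17-fold in hsp31∆ (log2 1.66 ± 0.11 SE, adjusted p = 3.91e-08), 3.98-fold in hsp32∆ (1.99 ± 0.11, adjusted p = 1.75e-09) and 2.86-fold in hsp33∆ (1.52 ± 0.11, adjusted p = 4.49e-08). Within slide 1, where hsp31∆ and wild type have 2 arrays each, its log2 difference was 1.59 (adjusted p = 0.00114). RPS27A, a cytosolic ribosomal protein gene and its neighbour on one side, was higher by log2 0.69, 1.63 and 1.10 in hsp31∆, hsp32∆ and hsp33∆ and does not overlap RSM22 in the reference annotation.

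RSM7 went the other way. It encodes the counterpart of bacterial S7, a protein of the small-subunit head. Its log2 intensity was 15.53, 15.49 and 15.26 in hsp31∆, 14.42, 14.00 and 14.00 in hsp32∆, and 15.21, 15.15 and 14.83 in hsp33∆, against 15.82, 15.95 and 15.70 in wild type. All deletion arrays lay below all wild-type arrays, with the hsp32∆ arrays lowest. The measured fall was 3.20-fold in hsp32∆ (log2 -1.68 ± 0.13, adjusted p = 8e-08), 1.69-fold in hsp33∆ (-0.75 ± 0.13, adjusted p = 0.00026) and 1.31-fold in hsp31∆ (-0.39 ± 0.13, adjusted p = 0.0236). The probe was saturated on wild-type replicates 1 and 2, where both spots had 55% to 96% saturated pixels, and on no deletion array; on hsp31∆ replicates 1 and 2 and on wild-type replicate 3, 1 of the 2 spots had 69%, 71% and 75%. A saturated pixel gives no more than its ceiling, so the wild-type level and with it the falls in hsp32∆ and hsp33∆ may be understated, and these folds are not exact. The call in hsp31∆ was lost within slide 1 (-0.24, adjusted p = 0.144), with the median foreground (-0.25, adjusted p = 0.102), without hsp31∆ replicate 3 (-0.30, adjusted p = 0.101) and without wild-type replicate 2 (-0.35, adjusted p = 0.0786). Its neighbour YJR115W had log2 differences of -0.59, -0.94 and -0.48 in hsp31∆, hsp32∆ and hsp33∆, all called.

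MRPS18, the counterpart of bacterial S11 on the platform of the small subunit, was lower by a similar amount in each deletion. Its log2 intensity was 8.83, 9.10 and 8.90 in hsp31∆, 8.92, 8.81 and 8.82 in hsp32∆, and 9, 8.72 and 8.98 in hsp33∆, against 9.56, 9.36 and 9.57 in wild type. No deletion array reached the lowest wild-type array. The falls were 1.47-fold (log2 -0.55 ± 0.10, adjusted p = 0.000463), 1.57-fold (-0.65 ± 0.10, adjusted p = 6.78e-05) and 1.51-fold (-0.60 ± 0.10, adjusted p = 0.000198) in hsp31∆, hsp32∆ and hsp33∆. MRP21, the counterpart of bacterial S21, lies on the same platform. Its log2 intensity was 8.60, 8.72 and 8.71 in hsp31∆, 8.61, 8.58 and 8.60 in hsp32∆, and 8.82, 8.60 and 8.44 in hsp33∆, against 9.18, 8.96 and 9.05 in wild type. The groups did not overlap, and the differences of -0.39, -0.47 and -0.44 were called, but with 75th-percentile scaling they were -0.05, -0.07 and -0.10 and none was called. RSM18, the counterpart of bacterial S18 on the same platform, was higher instead, at 11.91, 11.89 and 11.84 in hsp31∆, 11.98, 11.88 and 12.04 in hsp32∆ and 11.89, 11.67 and 11.74 in hsp33∆, against 11.67, 11.59 and 11.48 in wild type. It was called in hsp31∆ (0.30 ± 0.086, adjusted p = 0.00959) and hsp32∆ (0.39 ± 0.086, adjusted p = 0.00116) but not in hsp33∆ (0.19, adjusted p = 0.076). With median scaling its differences in hsp31∆ and hsp32∆ were -0.01 and 0.00, and within slide 1 the adjusted p in hsp31∆ was 0.086. MRP17, the counterpart of bacterial S6 and also a platform protein, was called in none of the comparisons.

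MRPS5, the counterpart of bacterial S5, had log2 intensities of 9.41, 9.73 and 9.85 in hsp31∆, 9.68, 9.78 and 9.75 in hsp32∆, and 9.88, 10 and 9.84 in hsp33∆, against 10.08, 10.06 and 10.22 in wild type. All deletion arrays lay below wild type. It was called lower in hsp31∆ (-0.46 ± 0.11, adjusted p = 0.00252) and hsp32∆ (-0.38 ± 0.11, adjusted p = 0.00563), the second of these lost with 75th-percentile scaling (-0.15, adjusted p = 0.178), and not in hsp33∆ (-0.21, adjusted p = 0.10). Other small-subunit members were called lower in hsp32∆ alone of the 3 comparisons: MRP51, MRPS9, RSM10 and RSM28, with log2 differences of -0.45, -0.44, -0.26 and -0.34. With 75th-percentile scaling the calls of MRPS9, RSM10 and RSM28 were lost and that of MRP51 was kept (-0.53, adjusted p = 0.00492); the MRP51 call was lost without hsp32∆ replicate 3 (-0.28, adjusted p = 0.0749) or wild-type replicate 1 (-0.40, adjusted p = 0.0548).

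Beside RSM22 and RSM18, the small-subunit members called higher were MRP13, RSM27 and MRP4. MRP13, a mitochondria-specific protein, had log2 intensities of 9.79, 9.60 and 9.80 in hsp31∆, 9.71, 10.02 and 10.20 in hsp32∆, and 9.94, 9.88 and 9.69 in hsp33∆, against 9.50, 9.55 and 9.59 in wild type. It was called in hsp32∆ (0.43 ± 0.12, adjusted p = 0.00477) and hsp33∆ (0.29 ± 0.12, adjusted p = 0.0441), where the call was lost when any of hsp33∆ replicates 1 and 2 and the wild-type replicates 1 to 3 was left out (adjusted p 0.0692 to 0.143), with slide as a block (0.23, adjusted p = 0.0711) and with a replicate block (0.29, adjusted p = 0.059). RSM27, also mitochondria-specific, read 9.59, 9.82 and 10.12 in hsp31∆, 9.87, 9.94 and 10.29 in hsp32∆, and 10.12, 10.16 and 10 in hsp33∆, against 9.65, 9.76 and 9.79 in wild type. Only the hsp31∆ arrays overlapped wild type. RSM27 was called in hsp33∆ alone (0.36 ± 0.13, adjusted p = 0.0311), and that call was lost without hsp33∆ replicate 1 or 2 or wild-type replicate 1 or 2 (adjusted p 0.0587 to 0.102). MRP4, the counterpart of bacterial S2, was called in hsp33∆ (0.22 ± 0.08, adjusted p = 0.0309) and lost without the same arrays (adjusted p 0.0632 to 0.114). With median scaling limma did not call it either (0.11, adjusted p = 0.26). MRP4 (YHL004W) overlaps the locus YHL005C in the reference annotation, on the opposite strand by the locus names. Whether its probe reads both was not tested.

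**Figure D3:**
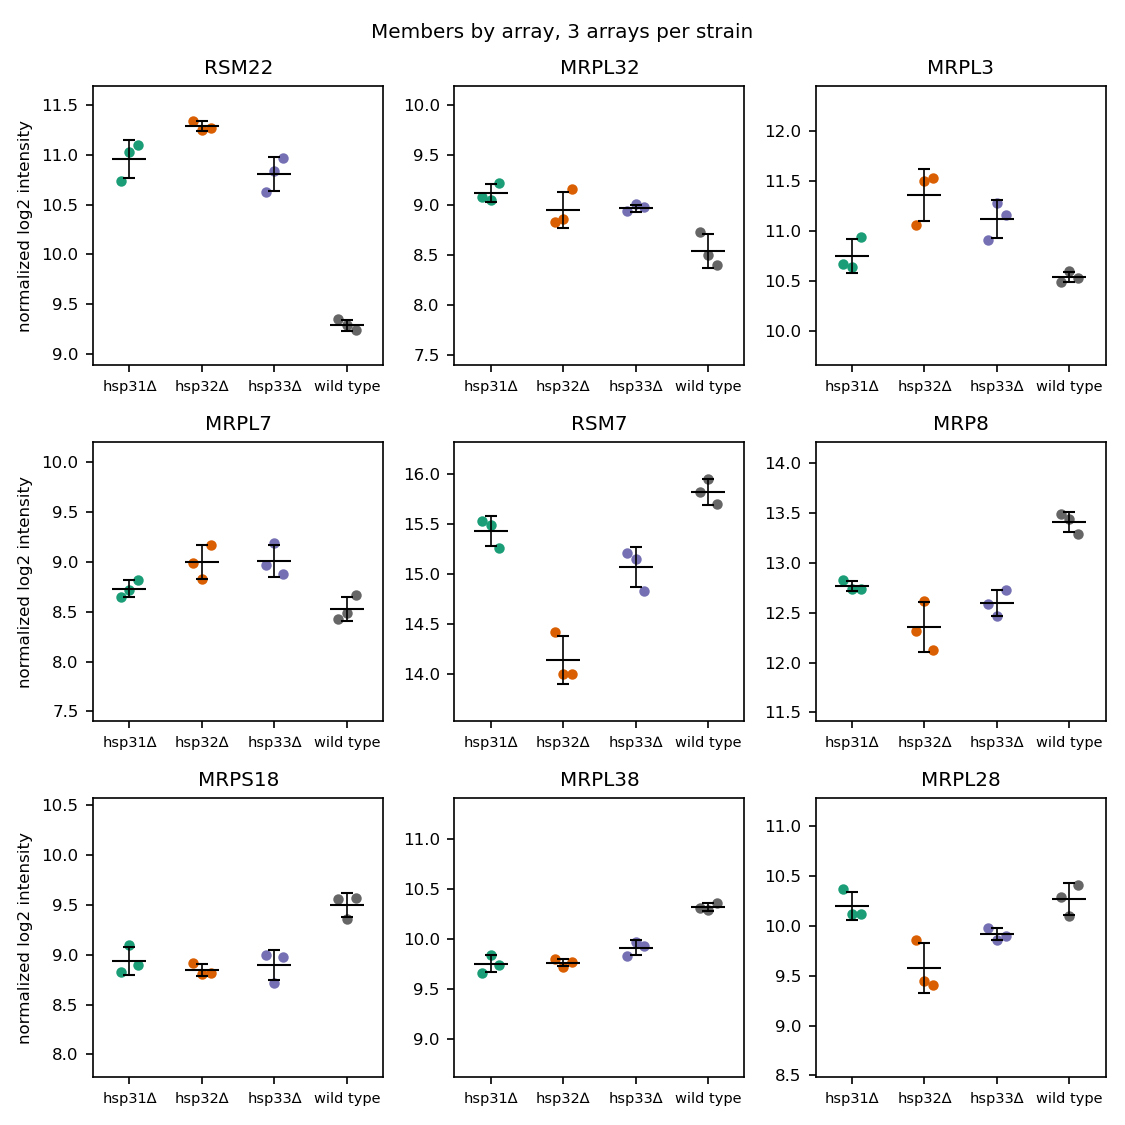
Normalized log2 intensity on each array (points), with the mean and SD of 3 arrays per strain (bar and whiskers), for RSM22, MRPL32, MRPL3, MRPL7, RSM7, MRP8, MRPS18, MRPL38 and MRPL28. Each vertical axis spans the same range of log2 units; RSM22 is at 10.63 or more on every deletion array and at 9.35 or less on every wild-type array, and RSM7 and MRPL28 reach their lowest values in hsp32∆.

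In the large subunit, the members with the clearest rises were MRPL3, MRPL7 and MRPL32. MRPL32, the counterpart of bacterial L32, is known in yeast as a substrate that the m-AAA protease of the inner membrane must process before the ribosome can be assembled. Its log2 intensity was 9.08, 9.05 and 9.22 in hsp31∆, 8.83, 8.86 and 9.16 in hsp32∆, and 8.94, 9.01 and 8.98 in hsp33∆, against 8.73, 8.5 and 8.40 in wild type. The deletion arrays all lay above wild type. The rises were 1.49-fold (log2 0.57 ± 0.11, adjusted p = 0.000497), 1.32-fold (0.40 ± 0.11, adjusted p = 0.00407) and 1.35-fold (0.43 ± 0.11, adjusted p = 0.00321) in hsp31∆, hsp32∆ and hsp33∆. Its chromosomal neighbours moved in opposite directions, the septin gene CDC10 by 1.01, 1.27 and 1.18 and YCP4 by -0.63, -1.60 and -1.05 on the log2 scale.

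MRPL3, which carries a ribonuclease III-like fold and lies near the exit of the polypeptide tunnel, read 10.67, 10.64 and 10.94 in hsp31∆, 11.06, 11.50 and 11.53 in hsp32∆, and 10.91, 11.28 and 11.16 in hsp33∆, against 10.49, 10.60 and 10.53 in wild type. It rose 1.77-fold in hsp32∆ (log2 0.82 ± 0.13, adjusted p = 8.21e-05) and 1.49-fold in hsp33∆ (0.58 ± 0.13, adjusted p = 0.002). In hsp31∆ the difference of 0.21 was not called (adjusted p = 0.204), although those arrays too lay above wild type. MRPL7, the counterpart of bacterial L5 in the central protuberance, read 8.65, 8.72 and 8.82 in hsp31∆, 8.99, 8.83 and 9.17 in hsp32∆, and 8.97, 9.19 and 8.88 in hsp33∆, against 8.43, 8.49 and 8.67 in wild type. It rose 1.38-fold in hsp32∆ (0.47 ± 0.11, adjusted p = 0.00168) and 1.39-fold in hsp33∆ (0.48 ± 0.11, adjusted p = 0.00173), and in hsp31∆ its arrays overlapped wild type (0.19, adjusted p = 0.146). MRPL8, the counterpart of bacterial L17, was called higher in hsp32∆ (0.24 ± 0.099, adjusted p = 0.0471), and turned to -0.07 with median scaling. That call was also lost with slide as a block (adjusted p = 0.0694), with a replicate block (adjusted p = 0.0579), with the 2 groups alone (adjusted p = 0.0514), and without hsp32∆ replicate 1 or 3 or wild-type replicate 1 or 2 (adjusted p 0.0795 to 0.18).

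Among the large-subunit members, MRPL38, the counterpart of bacterial L14, was lower in all 3 deletions under every setting run. Its log2 intensity was 9.66, 9.84 and 9.74 in hsp31∆, 9.80, 9.72 and 9.77 in hsp32∆, and 9.83, 9.97 and 9.93 in hsp33∆, against 10.31, 10.29 and 10.36 in wild type. The highest deletion array stayed below the lowest wild-type array. It fell 1.49-fold in hsp31∆ (log2 -0.57 ± 0.079, adjusted p = 3.94e-05), 1.47-fold in hsp32∆ (-0.56 ± 0.079, adjusted p = 2.16e-05) and 1.33-fold in hsp33∆ (-0.41 ± 0.079, adjusted p = 0.000466). Its neighbours NNK1 and KKQ8, both protein kinase genes, were also lower, by 0.39 and 0.85 in hsp31∆, 0.96 and 1.09 in hsp32∆, and 0.60 and 0.74 in hsp33∆ on the log2 scale.

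MRPL28, a mitochondria-specific protein of the central protuberance, fell chiefly in hsp32∆. It read 10.37, 10.12 and 10.12 in hsp31∆, 9.86, 9.45 and 9.41 in hsp32∆, and 9.98, 9.86 and 9.90 in hsp33∆, against 10.29, 10.10 and 10.41 in wild type. The hsp31∆ arrays overlapped wild type and the others did not. It was 1.61-fold lower in hsp32∆ (log2 -0.69 ± 0.12, adjusted p = 0.000205) and 1.27-fold lower in hsp33∆ (-0.35 ± 0.12, adjusted p = 0.0249), with -0.06 in hsp31∆ (adjusted p = 0.692). The hsp33∆ call was lost without hsp33∆ replicate 2 or 3 or wild-type replicate 1 or 3 (adjusted p 0.0568 to 0.105). In limma it was also lost with 75th-percentile scaling (-0.19, adjusted p = 0.216).

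The other large-subunit members called lower in all 3 deletions lost calls with 75th-percentile scaling. MRPL6, the counterpart of bacterial L6, read 8.62, 8.42 and 8.46 in hsp31∆, 8.19, 8.18 and 8.16 in hsp32∆, and 8.44, 8.44 and 8.32 in hsp33∆, against 8.67, 8.70 and 8.84 in wild type. MRPL25, a mitochondria-specific protein, read 8.31, 8.55 and 8.31 in hsp31∆, 8.22, 8.11 and 8.35 in hsp32∆, and 8.35, 8.29 and 8.41 in hsp33∆, against 8.90, 8.67 and 8.76 in wild type. Both separated every deletion array from wild type, with the largest differences in hsp32∆, -0.56 ± 0.083 for MRPL6 (adjusted p = 3.67e-05) and -0.55 ± 0.097 for MRPL25 (adjusted p = 0.000177). In hsp31∆ and hsp33∆ the differences were -0.24 and -0.34 for MRPL6 and -0.39 and -0.43 for MRPL25. With 75th-percentile scaling MRPL6 stood at 0.13, -0.15 and 0.05, and MRPL25 at -0.02, -0.15 and -0.04, in hsp31∆, hsp32∆ and hsp33∆, and none was called. The hsp31∆ call of MRPL6 was also lost without hsp31∆ replicate 2 or 3 or wild-type replicate 3 (adjusted p 0.0779 to 0.111), and within slide 1 neither MRPL6 (-0.24, adjusted p = 0.203) nor MRPL25 (-0.40, adjusted p = 0.0623) was called in hsp31∆.

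MRPL44, a mitochondria-specific protein, read 9.80, 9.64 and 9.73 in hsp31∆, 9.71, 9.61 and 10.02 in hsp32∆, and 9.70, 9.72 and 9.88 in hsp33∆, against 10.21, 10.07 and 10.09 in wild type. MRPL31, also mitochondria-specific, read 9.49, 9.84 and 9.96 in hsp31∆, 9.65, 9.69 and 9.75 in hsp32∆, and 9.66, 9.85 and 9.97 in hsp33∆, against 10.07, 10.14 and 10.11 in wild type. MRPL24, the counterpart of bacterial L28, read 8.35, 8.25 and 8.33 in hsp31∆, 8.29, 8.43 and 8.39 in hsp32∆, and 8.26, 8.41 and 8.12 in hsp33∆, against 8.72, 8.56 and 8.65 in wild type. None of the 3 genes overlapped wild type in any deletion. Their log2 differences in hsp31∆, hsp32∆ and hsp33∆ were -0.40, -0.34 and -0.35 for MRPL44, -0.34, -0.41 and -0.28 for MRPL31, and -0.33, -0.27 and -0.38 for MRPL24. With 75th-percentile scaling they were -0.24, -0.11 and -0.17 for MRPL44, -0.17, -0.17 and -0.09 for MRPL31, and 0.02, 0.14 and 0.00 for MRPL24, none called. MRPL44 also lost its hsp32∆ call without hsp32∆ replicate 2 (-0.26, adjusted p = 0.0513), and MRPL24 without hsp32∆ replicate 1 or wild-type replicate 1 (adjusted p 0.0558 and 0.056). The MRPL31 call in hsp31∆ was lost without hsp31∆ replicate 1 or wild-type replicate 2 or 3 (adjusted p 0.0567 to 0.0992), and in hsp33∆ without hsp33∆ replicate 1 or 2 or any wild-type replicate (adjusted p 0.0793 to 0.199) and with slide as a block (adjusted p = 0.0524). Within slide 1 the hsp31∆ call of MRPL31 was lost as well (-0.42, adjusted p = 0.0731).

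MRPL27, a mitochondria-specific protein, was called lower in hsp31∆ alone. It read 8.68, 9.09 and 9.10 in hsp31∆, 9.25, 9.07 and 9.32 in hsp32∆, and 9.21, 9.43 and 9.39 in hsp33∆, against 9.32, 9.31 and 9.49 in wild type. The hsp31∆ arrays lay below wild type (-0.42 ± 0.12, adjusted p = 0.00857), whereas hsp32∆ and hsp33∆ overlapped it. The call was lost within slide 1 (-0.52, adjusted p = 0.0557) and with 75th-percentile scaling (-0.11, adjusted p = 0.355).

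MRP8, whose product has no assigned place in the ribosome, was lower in every deletion. It read 12.83, 12.74 and 12.74 in hsp31∆, 12.32, 12.62 and 12.13 in hsp32∆, and 12.59, 12.47 and 12.73 in hsp33∆, against 13.49, 13.44 and 13.29 in wild type. Every deletion array lay below every wild-type array. The falls were 1.56-fold in hsp31∆ (log2 -0.64 ± 0.12, adjusted p = 0.000392), 2.07-fold in hsp32∆ (-1.05 ± 0.12, adjusted p = 2.05e-06) and 1.76-fold in hsp33∆ (-0.81 ± 0.12, adjusted p = 3.88e-05). Its neighbours differed in direction: SDH3, a subunit of succinate dehydrogenase, changed by -0.30, -0.76 and -0.37, and LTV1, a factor of cytosolic small-subunit assembly and export, by 0.44, 1.31 and 0.80, in hsp31∆, hsp32∆ and hsp33∆.

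The large and small subunits had similar medians. In hsp31∆ 1 large-subunit member was called higher and 8 lower, and 2 small-subunit members higher and 4 lower. In hsp32∆ the counts were 4 and 12 for the large subunit and 3 and 8 for the small. In hsp33∆ they were 3 and 12 for the large subunit and 4 and 3 for the small. The shares called in hsp31∆, hsp32∆ and hsp33∆ were 27.3%, 48.5% and 45.5% of the large and 26.1%, 47.8% and 30.4% of the small subunit. Over all genes tested they were 56.1%, 70% and 61.4%, and these differences in share were not tested. The median log2 difference was -0.06, -0.14 and -0.04 for the large subunit and -0.12, -0.13 and -0.05 for the small subunit in hsp31∆, hsp32∆ and hsp33∆. Taken array by array, the large-subunit median minus the small-subunit median was 0.01 ± 0.014 in hsp31∆, -0.02 ± 0.07 in hsp32∆ and -0.06 ± 0.024 in hsp33∆, against -0.01 ± 0.053 in wild type (SD, n = 3 each). On single arrays it ran from -0.09 to -0.05 in hsp33∆ and from -0.05 to 0.05 in wild type, and the hsp33∆ mean moved to -0.03 with 75th-percentile or median scaling.

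**Figure D4:**
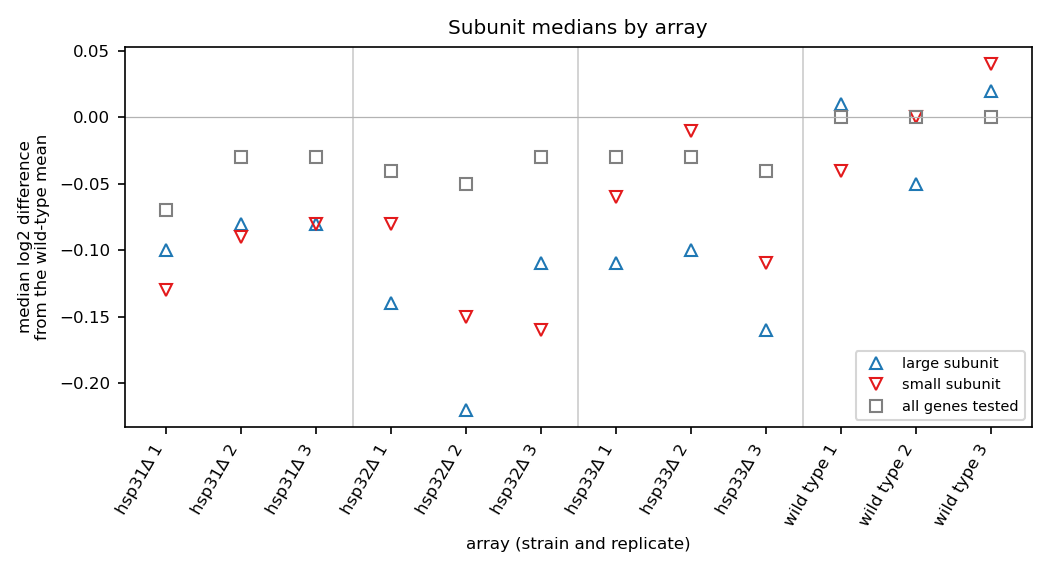
Median log2 difference from the wild-type mean on each array, for large-subunit genes (n = 33), small-subunit genes (n = 23) and all 5863 genes tested, with the deletions left of wild type. The subunits differ by at most 0.09 on any array; the small-subunit median is the higher one on all 3 hsp33∆ arrays, and which is higher varies among the hsp32∆ and the wild-type arrays.

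Members with and without a bacterial counterpart were called at similar rates. Among the 33 bacterial-type members, 2 were higher and 7 lower in hsp31∆, 4 and 13 in hsp32∆, and 3 and 10 in hsp33∆. Among the 23 mitochondria-specific members the counts were 1 and 5, 3 and 7, and 4 and 5. That is 27.3%, 51.5% and 39.4% of the bacterial-type and 26.1%, 43.5% and 39.1% of the mitochondria-specific members. Of all genes tested, 56.1%, 70% and 61.4% were called in hsp31∆, hsp32∆ and hsp33∆. Sites within the ribosome were small groups with mixed directions. Of 6 members at the exit of the polypeptide tunnel, MRP20, MRPL4, MRPL13 and MRPL15 were called in no comparison with wild type, MRPL3 was higher in hsp32∆ and hsp33∆, and MRPL40, the counterpart of bacterial L24, was lower in both (-0.23 and -0.27), with 0.15 and 0.06 under 75th-percentile scaling. Of 6 members of the central protuberance, MRP7 and MRPL36 were called in none, MRPL7 was higher as above, and MRPL17, MRPL28 and MRPL35 were lower in some. At the base of the GTPase stalk neither MRPL11 nor MRPL19 was called. MRPL19 overlaps the locus YNL184C in the reference annotation, and its hsp32∆ arrays read 8.79, 8.39 and 9.66, a wide spread. In the small-subunit head, RSM19 and MRP2 were called in none, and RSM7, MRPS9 and RSM10 were lower in hsp32∆.

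In all, 24 members, 14 of the large and 10 of the small subunit, were called in none of the 3 comparisons with wild type. That is 42.1% of members, where 23.2% of all genes tested were called in none. Another 11 were called in exactly 1 deletion and 10 in exactly 2, or 19.3% and 17.5% of members, against 14.4% of all genes for either count. A member that was not called is not shown to be unchanged: with standard errors near 0.10, small differences could not be told from 0.

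The deletions differed from each other at few mitoribosomal genes. Between hsp32∆ and hsp31∆, 2 members were higher and 6 lower in hsp32∆, 14% of members against 37.6% of all genes (19.7% higher, 17.8% lower). RSM7 was 2.44-fold lower in hsp32∆ than in hsp31∆ (log2 -1.29 ± 0.13, adjusted p = 1.45e-05), MRPL28 was 1.54-fold lower (-0.63 ± 0.12, adjusted p = 0.00134) and MRPL3 was 1.53-fold higher (0.62 ± 0.13, adjusted p = 0.00255). For RSM7 and MRPL3 the 3 hsp32∆ arrays lay wholly beyond the 3 hsp31∆ arrays, and likewise for MRPL28. The RSM7 fold is not exact, because 1 of its 2 spots had 69% and 71% saturated pixels on hsp31∆ replicates 1 and 2. MRP8 (-0.41), RSM10 (-0.37), MRPL6 (-0.32) and MRPL33 (-0.30) were also lower in hsp32∆, and RSM22 was higher (0.33). The MRP8 difference was not called without hsp32∆ replicate 3 (-0.30, adjusted p = 0.0625), nor the RSM22 difference without hsp31∆ replicate 1 or hsp32∆ replicate 1 or 3 (adjusted p 0.0517 to 0.103). The MRPL33 call was lost without hsp31∆ replicate 1 or 3 or hsp32∆ replicate 1 or 3 (adjusted p 0.0581 to 0.142), and with slide as a block (adjusted p = 0.0524). With 75th-percentile scaling limma no longer called MRPL6 (-0.28, adjusted p = 0.0921) or MRPL33 (-0.22, adjusted p = 0.178). With median scaling it no longer called RSM22 (0.24, adjusted p = 0.12) or MRPL33 (-0.29, adjusted p = 0.0569). With the 2 groups alone it called neither RSM22 (adjusted p = 0.061) nor MRPL33 (adjusted p = 0.11). Without background correction MRPL33 was not called (adjusted p = 0.06).

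Between hsp33∆ and hsp32∆, 2 members were higher and 1 lower in hsp33∆, 5.26% against 18.7% of all genes (9.59% higher, 9.13% lower). RSM7 was 1.90-fold higher in hsp33∆ (log2 0.92 ± 0.13, adjusted p = 0.000642), and within slide 2, where each has 2 arrays, the difference was 1.18 (adjusted p = 0.00244). RSM22 was 1.39-fold lower (-0.48 ± 0.11, adjusted p = 0.00775), with -0.53 within slide 2 (adjusted p = 0.0311) and -0.39 without hsp33∆ replicate 1 (adjusted p = 0.051). RSM10, the counterpart of bacterial S10, read 10.52, 10.47 and 10.42 in hsp33∆ and 10.27, 10.29 and 10.01 in hsp32∆, with no overlap; it read 10.48, 10.66 and 10.56 in hsp31∆, against 10.46, 10.45 and 10.43 in wild type. It was 1.21-fold higher (0.28 ± 0.089, adjusted p = 0.0449), but the call was lost within slide 2 (0.34, adjusted p = 0.126) and without hsp32∆ replicate 3 or hsp33∆ replicate 1 or 2 (adjusted p 0.113 to 0.165), and with slide as a block (adjusted p = 0.0553).

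Between hsp33∆ and hsp31∆ limma called 0 members, where 4.83% of all genes were called (2.87% higher, 1.96% lower). The lowest adjusted p of a member was 0.0767, for MRPL27 (0.39), and 7 of the 57 had an unadjusted p under 0.05, or 12.3% against 23.1% of all genes. RSM7 differed by -0.36 without being called (adjusted p = 0.131).

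The 10 genes that the array lists by locus were no exception. MRP35, MRPL1, MRPL22, MRPL50 and MRPL51 of the large subunit and MRPS8, MRPS12, MRPS16, MRPS17 and MRPS35 of the small subunit were all tested, and 2 of the 10 were called in each deletion. That is 20%, where 56.1%, 70% and 61.4% of all genes tested were called in hsp31∆, hsp32∆ and hsp33∆. MRPL51 was lower in all 3, with log2 differences of -0.26, -0.32 and -0.28 in hsp31∆, hsp32∆ and hsp33∆. The other calls were MRPL50 in hsp31∆ (-0.26 ± 0.091, adjusted p = 0.0254), MRPS12 in hsp32∆ (-0.55 ± 0.12, adjusted p = 0.00108) and MRPL1 in hsp33∆ (0.30 ± 0.10, adjusted p = 0.0181). With these genes included, the counts were 3 higher and 15 lower of 67 in hsp31∆, 7 and 23 in hsp32∆, and 8 and 17 in hsp33∆. These are 26.9%, 44.8% and 37.3% of the 67.

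Of the mitoribosomal proteins with other names, 42.9% of those in the large subunit were called in each deletion, and 50%, 33.3% and 33.3% of those in the small subunit in hsp31∆, hsp32∆ and hsp33∆, beside 56.1%, 70% and 61.4% of all genes; these differences were not tested. Of 7 in the large subunit, 1 was higher and 2 lower in hsp31∆, and 2 were higher and 1 lower in both hsp32∆ and hsp33∆. IMG1, IMG2 and RML2 were called in none of the deletions. MNP1, the counterpart of bacterial L7/L12, was higher in all 3 deletions (0.31, 0.32 and 0.29) and RTC6, the counterpart of bacterial L36, was lower in all 3 (-0.29, -0.66 and -0.48). Of 6 in the small subunit, 3, 2 and 2 were lower and 0 higher in hsp31∆, hsp32∆ and hsp33∆, while PET123, FYV4 and SWS2 were called in none. VAR1 was lower in all 3 (-0.58, -0.84 and -0.78), as was NAM9, the counterpart of bacterial S4 (-0.25, -0.33 and -0.35). VAR1 is the member of this list encoded in mitochondrial DNA. Whether the labelling reads its mRNA as it reads those of nuclear genes was not tested, so its values may not compare with theirs. The cytosolic ribosome differed from the mitochondrial one: 136, 137 and 137 of 138 cytosolic ribosomal protein genes were higher in hsp31∆, hsp32∆ and hsp33∆, with median log2 differences of 1.14, 1.73 and 1.47, and none was lower.

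Genes of the machinery that serves the mitoribosome were counted beside the background of all genes. Over all genes tested, 56.1%, 70% and 61.4% were called in hsp31∆, hsp32∆ and hsp33∆, with more falls than rises in each. Of 11 measured translation factors and charging enzymes for glutamine, 1 was higher and 4 lower in hsp31∆, 0 and 8 in hsp32∆, and 0 and 5 in hsp33∆. That is 45.5%, 72.7% and 45.5% of the list. Their median log2 differences were -0.17, -0.41 and -0.25, against -0.03, -0.04 and -0.03 over all genes. AIM23 (initiation factor 3), FMT1 (methionyl-tRNA formyltransferase) and PET112 (a subunit of the glutamyl-tRNA amidotransferase) were lower in all 3, with log2 differences in hsp32∆ of -0.69 ± 0.12 (adjusted p = 0.000129), -0.61 ± 0.084 (adjusted p = 1.81e-05) and -0.62 ± 0.12 (adjusted p = 0.000338). Of 12 mitochondrial aminoacyl-tRNA synthetases, 2 were higher and 4 lower in hsp31∆, 1 and 5 in hsp32∆, and 2 and 3 in hsp33∆, which is 50%, 50% and 41.7% of the list and below the share of all genes in each deletion. MSW1, which charges tryptophan, was higher in all 3 (0.87, 0.72 and 0.65), and MSK1 for lysine was lower in all 3 (-0.60, -0.43 and -0.31). Of 6 measured assembly and rRNA modification factors, 4, 3 and 3 were lower, among them MTG1, a GTPase of large-subunit assembly, and MSS116, a DEAD-box helicase, and MRH4 was higher in hsp32∆. Counts and calls of single genes and gene lists outside the member set, in this and the other paragraphs, were made with quantile scaling. They were not repeated with the 75th percentile.

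Proteins that tie the ribosome to the inner membrane were split. MDM38 was higher in all 3 deletions (0.48, 0.76 and 0.52) and its relative YLH47 in hsp32∆ and hsp33∆ (0.80 and 0.37). The insertase OXA1 was called lower in hsp32∆ and hsp33∆ (-0.18 and -0.21), and the ribosome receptor MBA1 in hsp31∆ and hsp32∆ (-0.28 and -0.23). These calls were not repeated with 75th-percentile scaling, which put the median of all genes 0.15, 0.21 and 0.19 higher in hsp31∆, hsp32∆ and hsp33∆. Of 15 measured genes acting on mitochondrial mRNAs or their translation, 3, 4 and 3 were higher and 6 were lower in each deletion. That is 60%, 66.7% and 60%, near the 56.1%, 70% and 61.4% of all genes. CBS2 and CBP6, which act on the cytochrome b mRNA, were lower in all 3 (CBS2 by 0.49, 0.91 and 0.68 on the log2 scale). The other CBS and CBP genes of the list did not share this: CBS1 was called higher in hsp32∆ (0.45, adjusted p = 0.038 in limma). CBP1 and CBP3 were called in no deletion. PET122, which acts on the COX3 mRNA, was higher in all 3 (0.60, 0.45 and 0.58), while its partners PET54 and PET494 were lower in all 3.

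Mitochondrial RNA polymerase RPO41 was lower in all 3 deletions (-0.31, -0.87 and -0.63), and its specificity factor MTF1 was higher in hsp32∆ and hsp33∆ (0.32 and 0.28). PUF3, which encodes an RNA-binding protein known to bind mRNAs of nuclear-encoded mitochondrial proteins, was lower in all 3 (-0.52, -0.75 and -0.65). HAP4, the activating subunit of the CCAAT-binding complex that drives respiratory genes, was higher in all 3 (0.38, 0.64 and 0.36), while HAP2 was lower in hsp32∆ and hsp33∆ and HAP5 in hsp31∆ and hsp32∆.

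**Figure D5:**
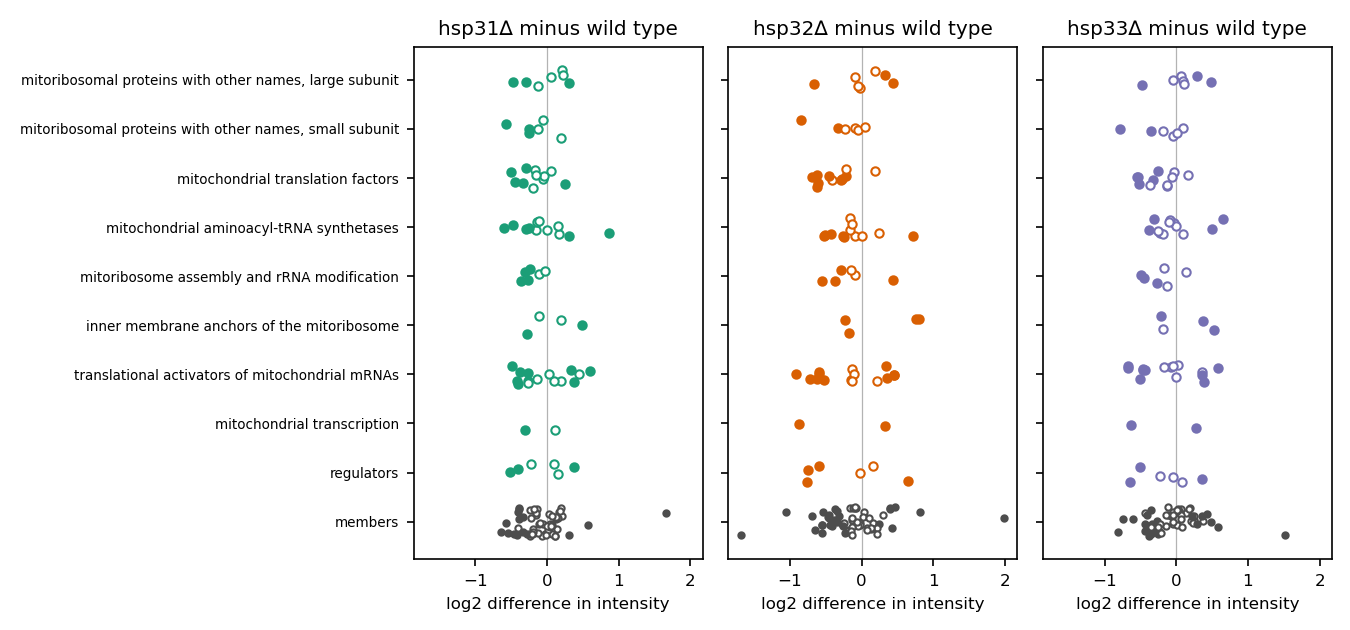
Log2 difference in intensity from wild type for genes of mitochondrial translation, 1 point per gene, grouped by role, with the members at the bottom; filled points had an adjusted p under 0.05. Points lie on both sides of 0 in most groups, with translation factors mostly left of 0 in hsp32∆.

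Members followed each other loosely across the 12 arrays. The Pearson correlation of a member with the median of the others ran from 0.79 for MRPL23 to -0.50 for MRPL15, and stood at -0.46 for RSM22. Outside the set, the genes whose levels were most like the members' median over the 12 arrays were GUP2 (r = 0.899), HTZ1 (r = 0.897), YLR123C (r = 0.877), PRM8 (r = 0.86) and CAX4 (r = 0.86). These are descriptions: the 12 points share arrays, slides and the difference between strains. In RNA from whole cultures, a lower level could come from fewer cells with the mRNA or from less mRNA per cell, and these cannot be told apart.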

How the data were processed

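Each of 12 samples was read on a one-colour Agilent array. Per the labels' protocols, RNA was extracted with Qiagen kits and labelled with the Low Input Quick Amp kit. The deposited scanner tables give intensity, as foreground and local background, per spot, not normalized, and the percent of saturated pixels per the file headers. The authors' deposited series values are the median foreground intensity, equal in all 15736 spots of the 12 arrays. The authors' comparison tables were not used. The build, the scanner and how the authors normalized are not given in the sources used here.

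Background was corrected with normexp (offset 50), non-control spots were quantile normalized, log2 taken and 2 spots per probe averaged. A probe counted as above background at the median plus 2 SD of 77 negative control spots, and as saturated with 50% of pixels; a gene was tested where its probe passed background on every array of some group, which held for 5863 of 6252. One limma fit (limma 3.58.1, R 4.3.3; 4 group means, 8 residual and 5.53 prior degrees of freedom) gave 6 comparisons, adjusted by Benjamini-Hochberg over all genes tested at 0.05, and was tested on simulated data. Figures used matplotlib. Precision is limited by how many arrays there are.

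Of the loci, 5753 matched the reference table (assembly R64), which gave names and neighbours only. Slides were inferred from repeated sub-array numbers and spot offsets: wild type 1 and 3, hsp31∆ 1 and 2, hsp32∆ 1 and hsp33∆ 3 on slide 1, the others on slide 2. After group means were removed, the mean r among arrays numbered 1, 2 and 3 was 0.035, -0.032 and -0.013, so numbers were not taken to pair samples. Replicates correlated at 0.98 to 0.997, and at most 0.79% of their spots were equal. Genes with values on every array are the 6 largest non-overlapping changes each way in every deletion against wild type, those called alike in all 3, and the 3 largest per direction between deletions. Members and lists were chosen with earlier results of these data known. Alternatives were other scalings, background treatments, filters, blocks, arrays left out and, chosen after seeing the data, other member sets and single slides.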

Additional observations from a re-analysis of the deposited data

How the results depend on the processing

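Of 78 calls of single members, 29 kept direction and threshold in every alternative run, 49 lost the threshold in at least 1, and 12 turned direction in at least 1; where no other value is given, the cause was not tested. With 75th-percentile scaling the calls became, higher and lower, 13 and 5 in hsp31∆, 21 and 6 in hsp32∆, and 21 and 5 in hsp33∆ against wild type, with medians of 0.12, 0.15 and 0.12. In hsp32∆ against hsp31∆ 4 were then higher with a median of 0.05, and in hsp33∆ against hsp32∆ 1 with 0.04. It turned MRPL6 (0.13), MRPL35 (0.08) and MRPL24 (0.02) in hsp31∆, MRPL17 (0.11), MRPL40 (0.15) and MRPL24 (0.14) in hsp32∆, and MRPL39 (0.02), MRPL40 (0.06), MRPL6 (0.05) and MRPL35 (0.12) in hsp33∆. This scaling put the median of all genes at 0.12, 0.17 and 0.15, and of the turned values only MRPL6 in hsp31∆ lay above it. The move was not the same for every member. In hsp31∆, MRPL6 moved from -0.24 to 0.13 and MRPL24 from -0.33 to 0.02, with wild-type log2 intensities of 8.74 and 8.64. MRP8 and RSM7, the members with the highest intensity (13.41 and 15.82), moved from -0.64 to -0.81 and from -0.39 to -0.54. Whether the move follows intensity was not tested. Median scaling turned RSM18 in hsp31∆ (-0.01) and MRPL8 in hsp32∆ (-0.07). Median scaling gave a median of -0.10 in hsp33∆ and 1 higher call in hsp32∆ against hsp31∆ and in hsp33∆ against hsp32∆, as did the 2 compared groups alone. The median foreground gave 4 higher and 10 lower in hsp32∆ against hsp31∆ and 4 higher in hsp33∆ against hsp32∆. Members above background on all 12 arrays had a median of -0.06 in hsp31∆. Within slide 1, 7 members were lower in hsp31∆, and within slide 2 the hsp33∆ against hsp32∆ median was 0.11. On single slides (chosen after seeing the data) the median was -0.02 in hsp31∆ on slide 2 and -0.12 in hsp33∆ on slide 1. Leaving out 1 array, the ranges against wild type were 3 to 3 higher and 11 to 13 lower in hsp31∆ (median -0.11 to -0.07), 6 to 7 and 18 to 20 in hsp32∆ (-0.17 to -0.13), and 4 to 13 and 11 to 17 in hsp33∆ (-0.07 to -0.06). They were 1 to 3 and 4 to 7 in hsp32∆ against hsp31∆ (-0.07 to 0.00), and 1 to 4 and 0 to 2 in hsp33∆ against hsp32∆ (0.05 to 0.11). Large minus small subunit was -0.02, -0.02, -0.01 and 0.03 in hsp31∆ with 75th-percentile scaling, median scaling, median foreground and members above background on all arrays, and -0.03, -0.03 and -0.01 in hsp33∆ with both scalings and that filter; leaving out 1 array gave -0.03 to 0.02 and -0.09 to -0.03. With a replicate block the counts were 3 higher and 13 lower in hsp31∆, 7 and 21 in hsp32∆, and 6 and 15 in hsp33∆, and 6 of the 12 arrays correlated best with their own number in other groups, a hint from the data and not from the design. Signal limits MRPL6, MRPL17 and MRPL25, each below background on 1 array, and saturation limits RSM7.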
